A study of Homo sapiens with 8 samples.

Results

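The kinesin and cytoplasmic dynein genes are the genes of the motor proteins that carry cargo along microtubules, here examined for RNA bound by RBFOX2 in HEK293T cells. The members were the protein-coding genes of the GRCh38 RefSeq annotation whose symbols name kinesins (KIF), kinesin light chains (KLC), subunits of cytoplasmic dynein (DYNC, DYNLL, DYNLRB, DYNLT) or dynactin subunits (DCTN). There were 71 such genes of 20037 protein-coding genes, and 5750 of the 1118316 deposited peaks had their midpoint in the span of a member on its strand. The rule that picks the members reads gene symbols and no measured value, though it was set with earlier results of these data known.

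HEK293T is an established human embryonic kidney line. The study measured RBFOX2-bound RNA by eCLIP, in which RNA and protein in contact are joined by ultraviolet light, RBFOX2 is immunoprecipitated (IP) and the attached RNA fragments are sequenced. It holds 8 samples: 4 RBFOX2 IP libraries and 4 input libraries, all from HEK293T cells irradiated with 400 mJ per square centimetre at 254 nm, with no other genotype or treatment in the labels. The input was 2% of the same lysate, taken without selection for RBFOX2. The authors deposited 1 peak list for each IP against the input of its number, so each list is a replicate here. The labels do not say that the replicates were separate cultures, so p-values here measure only the spread between these samples, which may be technical. Read depth is unknown, because the lists hold no counts.

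Kinesins mostly walk toward the plus ends of microtubules and cytoplasmic dynein toward the minus ends. Dynein needs dynactin, a large complex that links it to cargo, to move over long distances. RBFOX2 is a splicing regulator that recognises the RNA sequence GCAUG, written GCATG in DNA letters, and is known for binding introns near the exons that it controls.

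The only stretch of enriched member sites for which sequence was at hand lies in DCTN1, the gene of the p150Glued subunit through which dynactin contacts dynein and microtubules. It surrounds an internal annotated transcript start, 1 of 3 for this gene, and is shown because it holds 2 of the 5 enriched DCTN1 regions described below. The 300 bases are chr2:74374618-74374917 of GRCh38.p14, minus strand, from RefSeq, written 5′ to 3′ along the RNA with each GCATG in capitals:
DCTN1 internal start: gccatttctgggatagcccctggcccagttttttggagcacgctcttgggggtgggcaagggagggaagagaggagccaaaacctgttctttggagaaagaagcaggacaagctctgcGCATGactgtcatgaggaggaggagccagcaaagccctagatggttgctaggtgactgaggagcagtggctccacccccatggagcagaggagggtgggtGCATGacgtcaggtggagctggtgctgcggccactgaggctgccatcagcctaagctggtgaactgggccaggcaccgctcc

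The window holds GCATG at 2 places. The first, at bases 119 to 123, lies within an enriched region that covers bases 20 to 124, and 1 called peak, of replicate 4, spanned it whole. The other, at bases 219 to 223, is part of TGCATG, lies 28 nt before the annotated start within the enriched region at bases 139 to 278, and was spanned by called peaks of all 4 replicates. GCATG on the opposite strand (CATGC) does not occur in the window. Of 35116 RefSeq promoter windows of the same kind, 19.6% held GCATG at least once and 2.78% at least 2 times, 5.23% held TGCATG (which contains GCATG), and 19.1% held CATGC. Among called peaks of any gene lying wholly in such windows on the same strand, 12 of 27 enriched peaks (44.4%) and 244 of 5161 other peaks (4.73%) held GCATG, and 1 (3.70%) and 146 (2.83%) held CATGC. The enriched peaks were longer, with a median of 102 nt against 44 nt, and 6 of the 27 were from the DCTN1 window. These matches describe the letters and do not identify sites of binding.

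Motor genes as a group carried enriched peaks at close to the share of all genes, in 6 of the genes. A called peak was termed enriched when its log2 fold of IP over input was at least 3 and its −log10 p at least 3, both as deposited. The members held 1397, 1443, 1476 and 1434 called peaks in replicates 1 to 4, of which 12, 11, 12 and 8 were enriched (mean 10.75 ± 1.89, SD, n = 4). This was 0.748% ± 0.133 (SD, n = 4) of the member peaks, beside 0.818% over all 1118316 called peaks and 0.839% over those in protein-coding genes. Without the dynactin genes DCTN1 and DCTN2, left out after their values were seen, it was 22 of 5497 peaks (0.4002%). That choice lowers the share by construction, since the shares over all peaks keep their own most enriched genes. On the opposite strand of the member spans, 147 peaks were called and 0 were enriched.

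Moderate folds were somewhat more frequent among the motor genes. A log2 fold above 0.5 was reached by 39.2%, 37.1%, 33.8% and 35.0% of member peaks in replicates 1 to 4, and by 33.1%, 31.6%, 29.8% and 31.2% of all peaks. The member share was higher in 4 of 4 replicates, and the means were 36.3% ± 2.36 and 31.4% ± 1.35 (SD, n = 4). By gene, the mean share was 78.4% in DCTN2, 64.8% in DCTN1, 63.8% in KIF1C, 58.4% in KIF1A and 48.7% in KLC1. It was 33.6% in DYNC1H1 and 30.3% in DYNC2H1, which have many called peaks. The member share without the genes of highest share was not computed. At the other end, 21.3% ± 1.46 of member peaks and 23.6% ± 0.488 of all peaks lay below −0.5.

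Enriched peaks were found in DCTN1 (16 peaks over the 4 lists), KIF1B (12), KIF1A (6), DCTN2 (5), DYNC1LI2 (2) and KIF13A (2). These were 6 of the 64 members with a called peak (9.38%), beside 8.88% of all protein-coding genes with a called peak. Each of the 6 had at least 98 called peaks. Enriched peaks that overlapped on the same strand by at least 1 nt, across replicates, were merged into 16 member regions. By the number of replicates that were enriched, 5 regions had only 1, 5 had 2, 4 had 3 and the last 2 had all 4 (12.5%), beside 16.4% in all 4 among the 3371 merged regions of the genome. The 2 regions enriched in all 4 lie in DCTN1 and KIF1B, which makes 2 of 64 members (3.13%) beside 2.22% of protein-coding genes with a called peak. The enriched regions were chosen by these folds, so the folds and adjusted p-values given for them below are a description.

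**Figure D1:**
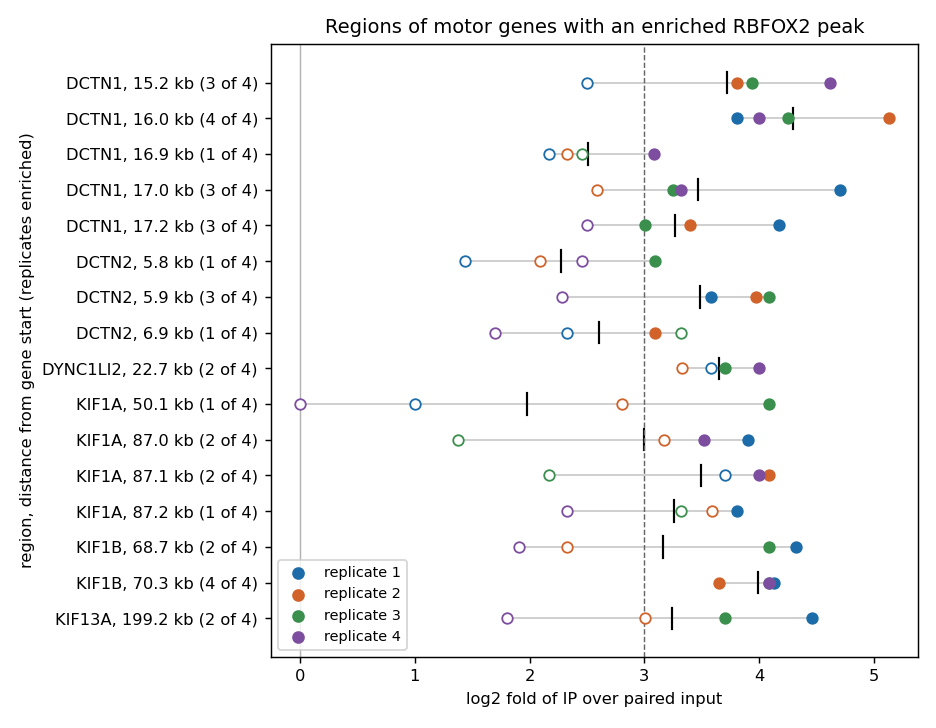
Log2 fold of IP over paired input (x axis) in each replicate for the 16 merged enriched regions of motor genes (rows, with distance from the gene start). Filled points are replicates with an enriched peak, open points are called values short of either threshold, black ticks are means and the dashed line is a log2 fold of 3. The second DCTN1 row and the KIF1B row at 70.3 kb are filled in all 4 replicates.

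To test regions without the enrichment thresholds, called peaks of the 4 lists were merged over the genome. The 49493 regions with a called peak in every replicate were fitted with limma against a log2 fold of 0, with Benjamini-Hochberg adjustment over all of them. These were 7.06% of all merged called regions, and 8.71% of the 3410 of the members. Where a replicate had several peaks in a region, the one of highest −log10 p was taken, which favours folds above 0. Counts above and below 0 are therefore read only beside those over all fitted regions, which share this choice. A region is called higher or lower below at an adjusted p of at most 0.05. Of 297 fitted member regions in 50 genes, 85 (28.6%) were higher, in 24 genes, beside 21.1% of all fitted regions. A further 2 (0.673%) were lower, beside 1.81% of all and 1.49% of those in protein-coding genes, and at an unadjusted limma p under 0.05 there were 118 above 0 and 10 below. The median of the mean log2 folds was 0.65 over the member regions and 0.50 over all fitted regions. Without DCTN1 and DCTN2, left out after their values were seen, 67 of 269 member regions (24.9%) were higher and the median was 0.58. The limma calls fell when a replicate was left out. Without replicate 1, 2 or 4, 0 member regions passed, with 123, 111 and 127 at an unadjusted p under 0.05 and a smallest adjusted p over all regions of 0.0516, 0.0504 and 0.0517. Without replicate 3, 20 of 378 passed (5.29%), beside 3.77% of all fitted regions.

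**Figure D2:**
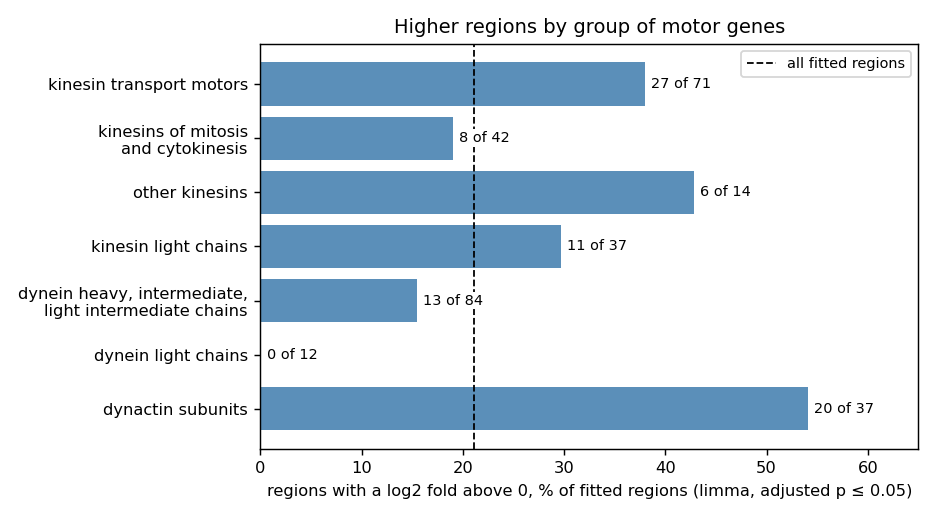
Share of fitted regions that were higher (x axis, percent; limma, adjusted p of at most 0.05) in each group of motor genes, with the counts beside the bars. The dashed line is the share over all fitted regions, 21.1%. The dynactin bar, 20 of 37, is the longest and the dynein light chains have 0 of 12.

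Dynactin genes with a DCTN symbol held 21 of the 43 enriched peaks of the motor genes. These were 4.85% of the 433 called peaks of the 6 dynactin genes, beside 0.818% over all peaks, and all of them lay in DCTN1 and DCTN2. Among fitted regions, 20 of 37 (54.1%) were higher and 0 lower, beside 21.1% and 1.81% of all fitted regions, with a median mean log2 fold of 1.93. The higher regions were 10 of 17 in DCTN1, 8 of 11 in DCTN2 and 2 of 4 in DCTN5.

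In DCTN1 the enrichment formed a compact block in the middle of the gene. DCTN1 spans chr2:74361155-74391866 on the minus strand, and its 5 enriched regions lay within 2123 nt, from 15.2 to 17.2 kb after the gene start. The region enriched in all 4 replicates, chr2:74375733-74375921, had log2 folds of 3.81, 5.13, 4.25 and 4.00 in replicates 1 to 4 (mean 4.30 ± 0.58, SD, n = 4; limma adjusted p = 0.00433 for the fitted region around it). Its −log10 p values were 6.06, 9.26, 4.68 and 3.56, and the highest log2 fold, in replicate 2, was the highest of any member peak. At chr2:74376494-74376762 the log2 folds were 2.50, 3.81, 3.94 and 4.61, so replicate 1 was low and fell short of the fold threshold. Its −log10 p reached 12.8, 10.4 and 11.9 in replicates 2 to 4, with the 12.8 the highest of any member peak.

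The other 3 regions of DCTN1 lie at or next to the internal start. Within the printed sequence, chr2:74374794-74374898 had log2 folds of 4.70, 2.59, 3.25 and 3.32 and chr2:74374640-74374779 had 4.17, 3.39, 3.0 and 2.50, each enriched in 3 replicates. In both, replicate 1 was the highest, and the replicate that missed the threshold differed, replicate 2 in the former and replicate 4 in the latter. A region just upstream, chr2:74374944-74375040, had 2.17, 2.32, 2.46 and 3.09 and was enriched in replicate 4 alone.

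Called peaks of DCTN1 differed between the sides of the internal start, where a peak's midpoint set its side. Of 75 called peaks before it, 16 were enriched, and of 80 after it, 0 were. The enriched region chr2:74374640-74374779, counted as before, runs across the start at 74374667. Over all called peaks 0.818% were enriched, a share too small for 0 of 80 to show a lack. Log2 folds after the start reached 2.999, in replicate 1 at 19084 nt from the gene start. The share with a log2 fold above 0.5 was 88.2%, 94.7%, 95.2% and 100% before the start in replicates 1 to 4 and 43.5%, 22.7%, 40.0% and 40.0% after it. The shares of the sides did not overlap, with means of 94.6% ± 4.83 and 36.6% ± 9.36 (SD, n = 4). Before the start, called peaks lay at 52 and 53 nt from the gene start and otherwise only from 13648 nt on. The share before the start therefore describes mainly the stretch just upstream of it. All 10 higher fitted regions lay between 15.2 and 17.2 kb. The other 7, all after the start, had a median mean log2 fold of 0.00 and a maximum of 0.65. No region before 15.2 kb was fitted, so the upstream edge of the block was not tested. This division was looked for after the values were seen.

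DCTN2 encodes dynamitin, the subunit whose excess takes dynactin apart. It is a short gene, chr12:57530051-57547192 on the minus strand, with 98 called peaks. Its main region, chr12:57541206-57541349, had log2 folds of 3.58, 3.97, 4.09 and 2.28 in replicates 1 to 4 (mean 3.48 ± 0.83, SD, n = 4; limma adjusted p = 0.00656) and −log10 p of 9.88, 10.7, 11.8 and 4.31. Replicates 1 to 3 were enriched and replicate 4 was lower, with 0 enriched peaks anywhere in DCTN2. The regions at 5.8 and 6.9 kb from the gene start were enriched in 1 replicate each, with means of 2.27 ± 0.69 and 2.61 ± 0.74. Moderate folds spread further than the enriched peaks: 80.8%, 70.8%, 73.9% and 88.0% of called DCTN2 peaks exceeded 0.5 (mean 78.4% ± 7.64), and higher regions ran from 2.2 to 8.4 kb. All 8 fitted regions in that stretch were higher, and the 3 outside it had mean log2 folds of at most 1.04.

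The remaining DCTN genes had no enriched peak. In DCTN5, a subunit of the pointed-end part of the complex, the higher of its 2 called regions, chr16:23670279-23670377, had log2 folds of 2.00, 2.00, 2.59 and 1.58 (mean 2.04 ± 0.41, SD, n = 4; limma adjusted p = 0.00925), all close together. DCTN3 had 0 higher regions of 3, with mean log2 folds from 1.16 to 1.43, and 64.4% ± 6.08 of its 28 called peaks were above 0.5. DCTN4 had 0 of 2, and DCTN6 had 20 called peaks but no fitted region.

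**Figure D3:**
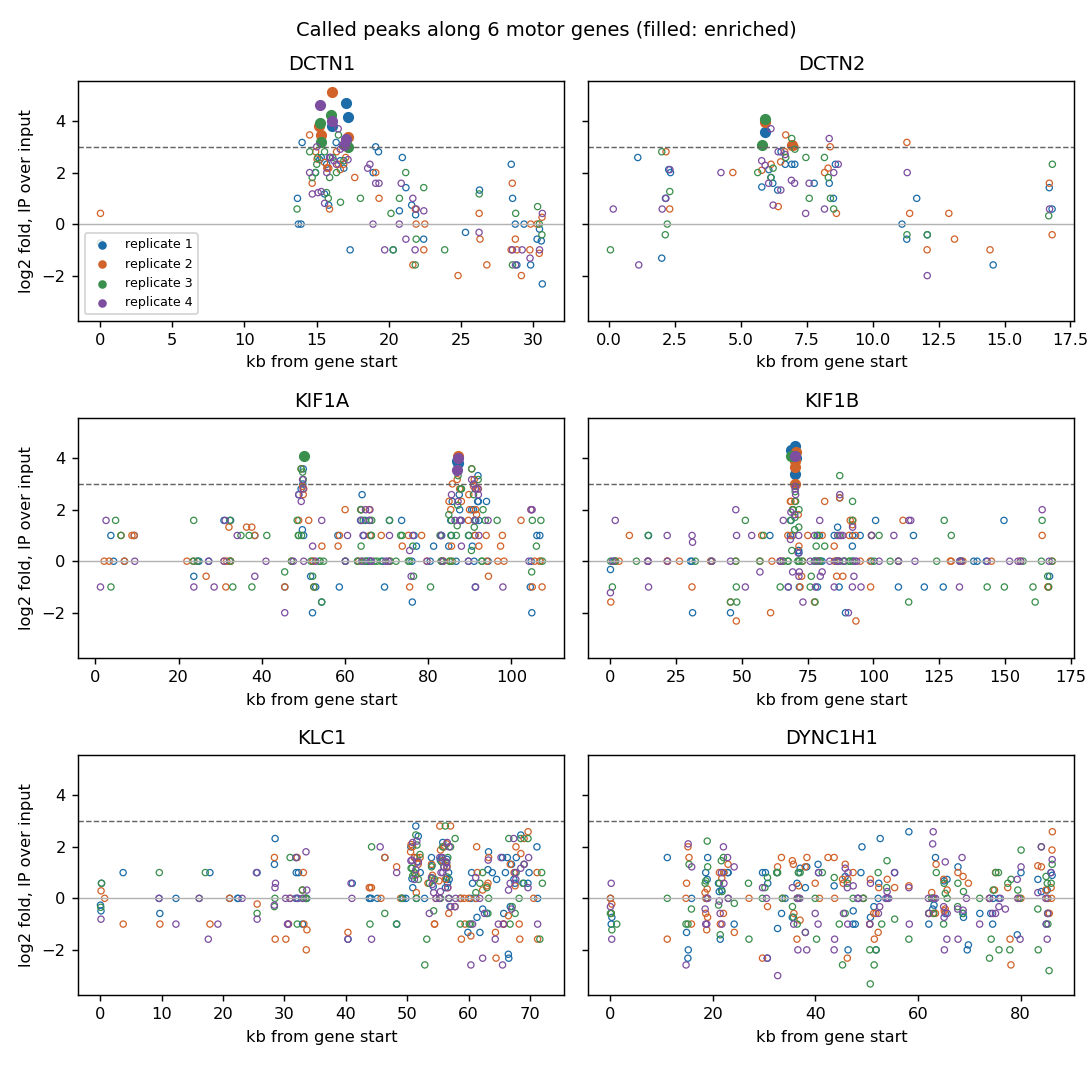
Log2 fold of IP over paired input (y axis) of every called peak against its distance from the gene start in kb (x axis) in DCTN1, DCTN2, KIF1A, KIF1B, KLC1 and DYNC1H1, coloured by replicate and filled where enriched. The dashed line is a log2 fold of 3. Enriched peaks form a block in DCTN1 (15.2 to 17.2 kb), DCTN2 and KIF1B, lie at 2 places in KIF1A, and are missing from KLC1 and DYNC1H1.

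Among kinesins, all 20 enriched peaks lay in transport motors, and in 3 of the 15 listed: KIF1B, KIF1A and KIF13A. They were 1.102% of 1815 called peaks, beside 0.818% over all peaks. Of 71 fitted regions 27 (38.0%) were higher and 0 lower, beside 21.1% and 1.81% of all, with a median of 1.00. The 27 fell in KIF1A (9), KIF1C (8), KIF1B (5), KIF13A (2), KIF16B, KIF21A and KIF5A (1 each).

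KIF1B encodes a kinesin of the KIF1 family that carries mitochondria and synaptic vesicle precursors. Its region at chr1:10280705-10281086, plus strand, 70.3 kb into a gene of 171034 nt, had log2 folds of 4.13, 3.65, 4.09 and 4.09 in replicates 1 to 4 (mean 3.99 ± 0.23, SD, n = 4; limma adjusted p = 0.00408). The −log10 p values were 7.99, 5.52, 4.12 and 3.84. Each log2 fold is that of the replicate's peak with the highest −log10 p. By this choice replicate 2 was lowest and the others nearly equal, although another enriched peak of replicate 2 there had 4.25. The region is 382 nt long and holds 10 enriched peaks over the 4 lists. The enriched peak of replicate 3 (10280912 to 10281000) and that of replicate 4 (10280749 to 10280842) did not overlap each other and were joined by peaks of replicates 1 and 2. Without replicate 1 or 2 it was no longer shared by all that remained, and DCTN1 was then the 1 member with such a region.

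A further KIF1B region, chr1:10279183-10279335, had log2 folds of 4.32, 2.32, 4.09 and 1.91 (mean 3.16 ± 1.22). Replicates 1 and 3 were high and enriched, and replicates 2 and 4 were low. The 5 higher fitted regions of KIF1B lay between 68.5 and 92.1 kb, a stretch of 13.8% of the gene. Among these, chr1:10297692-10297891 had 2.46, 2.46, 3.32 and 2.58 (mean 2.71 ± 0.41; limma adjusted p = 0.00574) without an enriched peak.

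KIF1A encodes the neuronal kinesin that carries synaptic vesicle precursors along axons. It had 310 called peaks over 107637 nt on the minus strand of chromosome 2, and 58.4% ± 2.29 of them (SD, n = 4) had a log2 fold above 0.5. Its fitted region chr2:240734166-240734498 had log2 folds of 3.91, 4.09, 3.32 and 3.52 in replicates 1 to 4 (mean 3.71 ± 0.35, SD, n = 4; limma adjusted p = 0.00411). All 4 replicates exceeded 3 there, but these folds come from different adjacent peaks, and the enriched peaks did not overlap across the region. They formed 3 adjacent regions, enriched in 2, 2 and 1 replicates, and replicate 3, with a −log10 p of 2.20, had no enriched peak there. In none of the 3 did all 4 replicates exceed 3: replicate 3 had 1.38 and 2.17 in the first 2, and replicate 4 had 2.32 in the last.

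A separate place in KIF1A lies 50.1 kb from the gene start, where the former is at 87.0 to 87.2 kb. There chr2:240771367-240771686 had log2 folds of 3.58, 2.91, 3.46 and 3.17 (mean 3.28 ± 0.30; limma adjusted p = 0.00435) and chr2:240771862-240772020 had 2.81, 3.59, 3.59 and 2.32 (mean 3.08 ± 0.62). Neither held an enriched peak, although 3 of 4 replicates exceeded 3 at chr2:240771367-240771686. Beside it, at chr2:240771243-240771345, the values were 1.00, 2.81, 4.09 and −0.000497, so the enrichment seen in replicate 3 was not shared, and the limma adjusted p was 0.121.

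KIF1C, a widely expressed member of the same family, had 0 enriched peaks of 163 called. Over all peaks 0.818% were enriched, a share too small for 0 of 163 to show a lack. Of its 15 fitted regions 8 were higher (53.3%), beside 21.1% of all fitted regions. A log2 fold above 0.5 was reached by 63.8% ± 5.24 of its called peaks (SD, n = 4), beside 31.4% of all peaks. Its highest region, chr17:5018916-5019150, had log2 folds of 2.58, 2.81, 2.00 and 2.32 (mean 2.43 ± 0.35; limma adjusted p = 0.00610), so all 4 replicates were high and below 3. The higher regions of KIF1C were spread over 71.2% of the gene, where those of DCTN1 took 6.48%.

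KIF13A encodes a kinesin of recycling endosomes. Its region chr6:17788323-17788521, minus strand, had log2 folds of 4.46, 3.0, 3.70 and 1.81 (mean 3.24 ± 1.13, SD, n = 4; limma adjusted p = 0.0120), with replicates 1 and 3 enriched and replicate 4 low. KIF5B, the main conventional kinesin heavy chain outside neurons, had 0 enriched peaks and 0 higher of 2 fitted regions. Of its 86 called peaks, 38.3% ± 8.82 (SD, n = 4) were above 0.5, beside 31.4% of all peaks. Its leading region, chr10:32033853-32034038, had 0.51, 0.32, −0.41 and 0.74 (mean 0.29 ± 0.50; limma adjusted p = 0.528). In its paralogs KIF5A and KIF5C, 1 of 3 and 0 of 2 fitted regions were higher, and in the heterotrimeric kinesin-2 motors KIF3A and KIF3B 0 of 1 each.

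Kinesin light chains link conventional kinesin to cargo. The 4 genes had 488 called peaks and 0 enriched, beside 0.818% over all peaks, and 11 of 37 fitted regions (29.7%) were higher, all in KLC1, beside 21.1% of all fitted regions. KLC1 had 319 called peaks, 28 fitted regions and a median mean log2 fold of 1.07. Its leading region, chr14:103680573-103680882, plus strand, had log2 folds of 2.81, 1.59, 2.07 and 2.22 in replicates 1 to 4 (mean 2.17 ± 0.50, SD, n = 4; limma adjusted p = 0.00957), with −log10 p of 5.13 in replicate 4. No replicate reached 3. The 11 higher regions lay in the last part of the gene, from 50.6 to 69.0 kb of 72.3 kb. KLC3 had 0 higher of 7 regions and KLC2 0 of 2, and KLC4 had 34 called peaks and no fitted region.

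The dynein heavy, intermediate and light intermediate chains stood near or below the background. They had 1345 called peaks, of which 2 were enriched (0.149%, beside 0.818% over all peaks), and 13 of 84 fitted regions (15.5%) were higher and 2 (2.38%) lower, beside 21.1% and 1.81%. The enriched peaks lay in DYNC1LI2, a light intermediate chain that holds cargo adaptors. Its region chr16:66728844-66729011, minus strand, had log2 folds of 3.58, 3.32, 3.70 and 4.00 in replicates 1 to 4 (mean 3.65 ± 0.28, SD, n = 4; limma adjusted p = 0.00411 for the fitted region around it). All 4 replicates exceeded 3. The −log10 p values were 2.47, 2.20, 3.01 and 3.56, and replicates 1 and 2 missed the enriched call by p alone. A neighbouring region, chr16:66728517-66728665, had 2.58, 3.0, 3.0 and 1.74 (mean 2.58 ± 0.60; limma adjusted p = 0.00806). Its paralog DYNC1LI1 had 0 higher of 3 fitted regions, with mean log2 folds from −1.04 to −0.65. Of its 66 called peaks, 6.07% ± 7.01 were above 0.5, against 50.6% ± 12.6 (SD, n = 4) in DYNC1LI2.

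DYNC1H1, the heavy chain that forms the motor of cytoplasmic dynein, had many called peaks but few higher regions. Of its 357 called peaks 0 were enriched, beside 0.818% over all peaks. A log2 fold above 0.5 was reached by 33.6% ± 6.12 of them (SD, n = 4), beside 31.4% of all peaks. Its 38 fitted regions were the most of any member, with a median mean log2 fold of 0.08. Of these 1 was higher (2.63%) and 2 were lower, beside 21.1% and 1.81% of all fitted regions. Its leading region, chr14:102050620-102050777, had log2 folds of 0.89, 2.59, 1.32 and 1.5 (mean 1.58 ± 0.72, SD, n = 4; limma adjusted p = 0.0329), with replicate 2 well above the rest. The 2 lower regions of the motor genes were both here. At chr14:101985991-101986064 the values were −1.59, −1.0, −1.41 and −0.59 (limma adjusted p = 0.0414), and at chr14:102015119-102015213 they were −1.0, −1.0, −2.0 and −1.0 (limma adjusted p = 0.0369).

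The heavy chain of the ciliary dynein, DYNC2H1, had the most called peaks of any member, 440, over 370438 nt. Of 18 fitted regions 5 were higher (27.8%), beside 21.1% of all fitted regions. The leading region, chr11:103132792-103133137, plus strand, had 1.58, 2.00, 3.59 and 3.0 in replicates 1 to 4 (mean 2.54 ± 0.91, SD, n = 4; limma adjusted p = 0.0151), so replicates 3 and 4 were the higher. In the intermediate chains, 1 of 4 fitted regions was higher in DYNC1I2, 2 of 9 in DYNC2I1 and 0 of 2 in DYNC2I2. DYNC1I1 had 1 called peak, and DYNC2LI1 had 26 and no fitted region.

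Dynein light chains, the small subunits at the base of the complex, gave few values. The 10 genes had 186 called peaks, 0 enriched, beside 0.818% over all peaks. Of their 12 fitted regions 0 were higher or lower by limma, beside 21.1% and 1.81% of all, in DYNLL1, DYNLL2, DYNLRB1 and DYNLT1, with a median mean log2 fold of 0.04. At an unadjusted limma p under 0.05, 0 regions lay above 0 and 1 below.

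**Figure D4:**
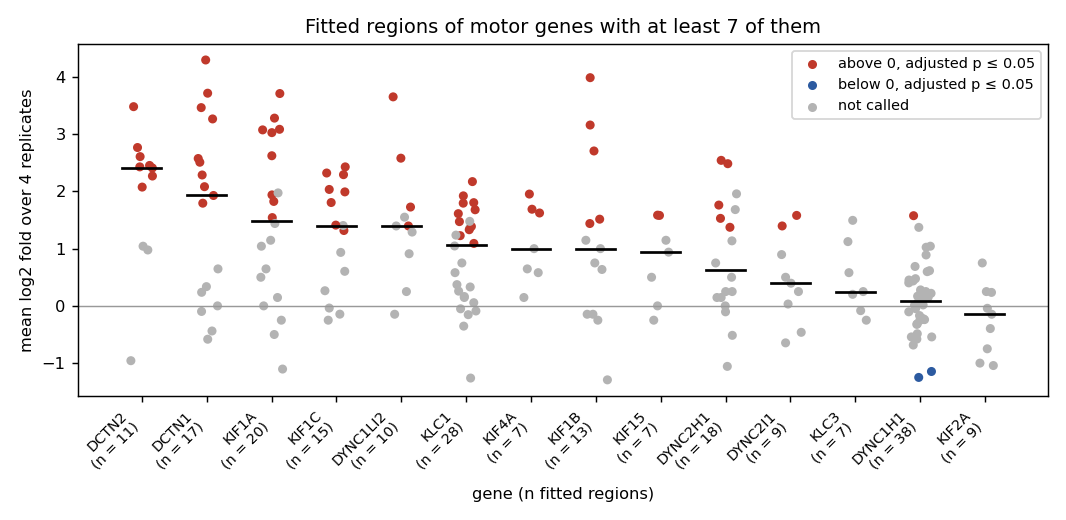
Mean log2 fold over the 4 replicates (y axis) of each fitted region in the motor genes with at least 7 fitted regions (x axis, ordered by the median, black bar). Red and blue points are regions above and below 0 at a limma adjusted p of at most 0.05. DCTN2 and DCTN1 have the highest medians, and the 2 blue points are in DYNC1H1.

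Kinesins of mitosis and cytokinesis build and order the spindle and the midbody. Their 15 genes had 1037 called peaks, of which 0 were enriched, beside 0.818% over all peaks, and 8 of 42 fitted regions (19.0%) were higher, beside 21.1% of all, with a median mean log2 fold of 0.28. The 8 were in KIF4A (3), KIF15 and KIF23 (2 each) and KIF20B (1). KIF11, the motor that pushes spindle poles apart, had 1 fitted region, chr10:92593360-92593450, with log2 folds of 1.00, −0.41, −0.19 and 1.58 (mean 0.49 ± 0.96, SD, n = 4; limma adjusted p = 0.466), so the replicates were on both sides of 0. The microtubule depolymerase KIF2A had 180 called peaks and 0 higher of 9 regions, with a median of −0.15.

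The other 12 kinesins had 446 called peaks, 0 enriched, beside 0.818% over all peaks, and 6 of 14 fitted regions (42.9%) were higher, beside 21.1% of all, in KIFC2 (3 of 3), KIF26A, KIF24 and KIF9 (1 each). The highest mean in KIFC2, a kinesin with its motor at the C-terminal end, was in a region with 2.46, 3.0, 1.88 and 2.81 (mean 2.54 ± 0.49, SD, n = 4; limma adjusted p = 0.00691). In KIFC2, 73.2% ± 14.1 of 38 called peaks were above 0.5.

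Replicates ranked the fitted member regions alike to a moderate degree. Spearman's rho between pairs of replicates was 0.488 to 0.568 across the 297 member regions and 0.463 to 0.477 across all fitted regions, as a description, since regions of a gene share their library and transcript. Of 29 replicate values without an enriched peak in the 16 enriched regions, 18 missed both thresholds, 8 missed −log10 p alone and 3 the fold alone. The rule left some members without a value. No strand was at hand for DYNLT2B, KIF27 and KIF19, with 8, 5 and 0 called peaks in their spans, and 4 members with a strand (DYNLRB2, DYNLT4, DYNLT5 and KIF2B) had no called peak. A further 14 had called peaks but no fitted region. The remaining 50 comprise 24 with a higher region, DYNC1H1 among them also with lower regions, and 26 with none called, whose 64 fitted regions held 8 above 0 and 3 below 0 at an unadjusted limma p under 0.05. Finally, 29 member peaks also lay in another gene of the same strand, 22 in KIF15 and 7 in KLC2, and cannot be told apart by gene. KIF15 and KLC2 had 0 enriched peaks.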

How the data were processed

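The authors deposited 4 peak lists without headers, so units were read from the values: a −log10 p-value, capped at 400, and a log2 fold of IP over input. The submitters' processing notes name UMI-tools 1.1.1, cutadapt 3.2, STAR 2.7.7a and the builds hg38 and GRCh38.p13. The peak caller, the p-value's test and adjustment, and the scaling between IP and input are not given in the sources used here. Folds sit on steps of small whole-number ratios, so the step at 8-fold lies just under a log2 fold of 3 in replicates 1 and 4 and just over it in replicates 2 and 3.

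Peaks were assigned by midpoint to RefSeq gene spans. Strand came from RefSeq promoter windows for 58 members and, for 10, from their called peaks (at least 10, with 90% on 1 strand), a rule that gave the table's strand for 97.4% of 8561 genes. Where a merged region held several peaks of a replicate, the peak of highest −log10 p supplied its log2 fold. R 4.3.3 and limma 3.58.1 were tested on simulated data. Exon and intron classes and sequences outside promoter windows were not analysed here.

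The members, gene lists and tests were chosen with earlier results of these data known. Regions were given in full for members with a region enriched in 2 or more replicates and for KIF5B, KIF11, DYNC1H1, DYNC2H1, DCTN1 and KLC1. Other named genes and regions were chosen after their values were seen. Alternatives were other thresholds, overlaps, strand rules and peak choices, and leaving out each replicate.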

Additional observations from a re-analysis of the deposited data

Results flagged for a closer look

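In the KIF1B region at chr1:10280705-10281086, the log2 fold of replicate 2, 3.65, stood apart from the other 3 replicates, which lay between 4.09 and 4.13. It was the only such value among 37 sets of 4 replicate values examined, where chance sets about 1 in 20 apart. All 4 values exceeded 3. The value depends on the choice of peak: 3.65 is from the replicate 2 peak of highest −log10 p. Another enriched peak of replicate 2 in the region had 4.25.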

How the results depend on the processing

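With −log10 p of at least 5, the mean count of enriched member peaks moved from 10.75 to 3.25, their share of called peaks from 0.748% to 0.228%, and the regions and genes enriched in all 4 replicates from 2 to 0 each. The regions numbered 5 with a log2 fold of at least 1, 16 when any called peak sufficed in the other replicates, and 1 when peaks were joined at 50% of the shorter peak. Against a log2 fold of 1, limma called 25 of 297 member regions higher (8.42%, beside 5.597% of all fitted regions) and 0 lower, with 60 at an unadjusted p under 0.05. Leaving out each replicate gave 10.3 to 11.7 enriched peaks, shares of 0.711% to 0.811%, 2 to 4 regions (4 without replicate 4), 1 to 3 genes (1 without replicate 1 or 2), 0 to 20 regions higher (20 of 378 without replicate 3, 5.29%, beside 3.77% of all) and 0 lower. With the mean over all peaks of a region, chosen after seeing the data, 78 were higher (26.3%, beside 19.0% of all) and 2 lower. Of 63 alternative values for the 9 named regions with a limma call, 35 lost the call, 28 kept it and 0 reversed. Their limma adjusted p ranged from 0.00375 to 0.0517 in DCTN1, 0.00334 to 0.0517 in KIF1B, 0.00620 to 0.0706 in DCTN2 and 0.0284 to 0.443 in DYNC1H1. No paired analysis was possible because the values used here are IP-over-input folds, with no separate input value to pair. Read depth is unknown, so how it limits single regions could not be assessed.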

Other observations

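A list of 41 genes outside the members, mostly adaptors and regulators of the motors, also held enriched peaks. It includes some parts of dynactin and of the motors whose symbols the member rule does not match, such as ACTR1B, KIFAP3 and CENPE. ACTR1B, a dynactin subunit, had 2 enriched regions, 1 of them enriched in 3 replicates. Of 4640 called peaks in 40 genes with a strand, 132 were enriched (2.84%), beside 0.748% of member peaks and 0.818% of all. They formed 32 regions in 11 of the 40 genes, beside 8.88% of protein-coding genes with a called peak. The regions were uneven over the genes, with 9 in NDEL1 and 8 in BICD2. The share of enriched peaks without these genes was not computed. Of the 32 regions, 8 were enriched in all 4 replicates, beside 16.4% of the merged regions of the genome. These 8 lay in 4 genes, beside 2.22% of protein-coding genes with a called peak. They were 3 in BICD2, a dynein adaptor, 3 in NDEL1, a dynein regulator, and 1 each in CCDC88A and SPAG9. Among fitted regions 59 of 249 (23.7%) were higher and 7 (2.81%) lower by limma, beside 21.1% and 1.81% of all. The difference between the lists was not tested.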
